A study of Mus musculus with 12 samples.

Results

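The comparison described here is that of bone marrow cells from mice given CTX (the model, model 1 to 4) with marrow cells from untreated mice (control 1 to 4), across every gene of the deposited read count table. It used 8 of the 12 samples of the series. All mice were wild type (WT), and each group had 4 libraries, which the submitters call biological replicates. The remaining 4 libraries did not enter the contrast. They did enter the choice of tested genes, the scaling and the estimate of the spread. The design text names the model one of myelosuppression, the loss of blood cell production in the marrow. CTX is a common abbreviation of cyclophosphamide, an alkylating drug whose active products crosslink DNA, but the labels do not spell it out. The dose, the days between CTX and sampling, the sex and the age of the mice were not given in the sources used here. No label states whether each library is a different mouse, and p-values here reflect the spread between the libraries alone.

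Dividing marrow cells are the main target of alkylating drugs. Crosslinks stop the replication fork, are removed by the Fanconi and homologous recombination genes, and can activate p53 and cell death. After such a drug the marrow loses cells and later refills from its progenitors. In RNA from whole marrow, fewer cells of a type and less RNA per cell cannot be told apart, and this holds for every gene described here.

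The 4 model libraries held 14194199 to 18330180 counts and the 4 control libraries 14746287 to 17004627. Controls 1 to 3 were nearly the same: the chi-square statistic of their counts per degree of freedom, which is 1 under sampling noise alone, was 1.72 to 1.92 between them, 139 to 147 against control 4, and 36.1 to 79.0 between model libraries. A gene was therefore called different only if its adjusted p was under 0.05 in edgeR's quasi-likelihood test with 4 controls and again with controls 1 to 3 summed into 1 sample. Marker lists showed the cells to be marrow. Granulocyte markers took 3.70% to 6.04% of model counts, against 7.29% to 7.47% in controls 1 to 3 and 4.56% in control 4. Erythroid markers took 0.0424% to 1.28% of model counts, against 2.77% to 2.81% in controls 1 to 3 and 10.6% in control 4. B lineage markers took 0.00885% to 0.0126% of model counts and 0.0871% to 0.194% of control counts, and eosinophil markers 0.00984% to 0.0668% of model counts and 0.309% to 0.432% of control counts. None of the 3 skeletal muscle and 2 liver markers reached the level needed for testing. Of 3 epithelial markers 1 was tested and called lower in the model, with a log2 change of -2.52, though not with the trends described below removed. Epithelial markers took 3.52e-05% to 8.66e-05% of model counts and 0.00021% to 0.000366% of control counts. The part of these shifts in cell type in the changes below was not tested.

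Of 21958 genes in the table, 12549 were measured well enough to be tested, and 4214 (33.6%) were called. Of the tested genes, 2221 (17.7%) rose in the model and 1993 (15.9%) fell. A change of more than 1 on the log2 scale was seen in 556 genes that rose (4.43%) and in 718 that fell (5.72%). The deposited FPKM values, tested with limma, gave another balance, with 2648 genes higher and 1380 lower. For 44.1% of tested genes the 4 model and the 4 control values did not overlap, with the model above for 23.3% and below for 20.8%. The calls changed most without control 4: 739 genes (5.81%) then rose and 568 (4.46%) fell, and of the genes called with it 734 and 543 kept the call. Since controls 1 to 3 count as 1 sample, leaving out control 4 leaves 1 control sample, which is assumed to vary like the other groups, so the values of control 4 and the loss of a control sample cannot be told apart in these counts. No called gene had an estimate of the opposite sign without control 4. Without model 1, 2, 3 or 4 the shares that rose were 14.1%, 16.1%, 15.3% and 16%, and the shares that fell 11.3%, 14%, 12.2% and 13.6%.

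Calls depended on gene length and base composition. Among 10 bins of equal size, the genes of the shortest bin (69 to 1791 bases) had a median log2 change of -0.36, with 4.14% higher and 31.6% lower. The longest bin (9986 to 123179 bases) had a median of 0.39, with 44.3% higher and 4.94% lower. Every model library lay on the same side of controls 1 to 3 in these bins, at -0.22 to -0.28 in the shortest and 0.30 to 0.33 in the longest, while control 4 lay on the other side, at 0.28 and -0.19. By GC content the lowest bin had a median of 0.29 and 35.3% higher calls. The part of RNA or library quality in this trend was not tested. When each library's trends with length and GC were removed, a step added after the data were seen, 1524 genes (12.1%) rose and 1604 (12.8%) fell. Of the genes called higher 1276 remained so, 57.5% of them, and of those called lower 1200, which is 60.2%. For this reason each class below is given with its counts after the trends were removed and without control 4. Genes described one by one kept their call with the trends removed and without each library in turn, unless an exception is stated.

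**Figure D1:**
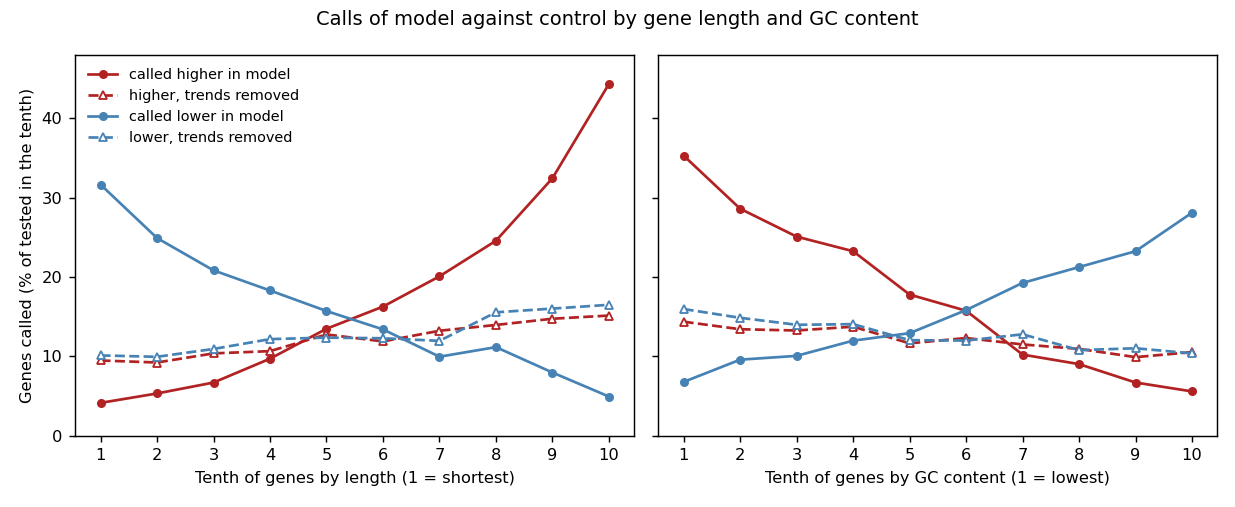
Share of tested genes called higher (red) or lower (blue) in the model, in percent on the vertical axis, over 10 equal bins of gene length (left) and of GC content (right). Filled points are the counts as deposited and rise to 44.3% higher in the longest genes; open triangles, with length and GC trends removed, stay between 9.23% and 16.5% across the length bins.

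The genes with the smallest p-values among the large changes came from several kinds of gene. Oas1g, at bases 121014205 to 121025676 of chromosome 5 in the deposited coordinates, whose build was not given in the sources used here, encodes a 2'-5' oligoadenylate synthetase that starts the breakdown of viral RNA. It had 63.8, 65.8, 79.2 and 64.9 CPM, the count scaled to library size, in model 1 to 4, against 6.18, 5.74, 6.03 and 4.28 CPM in control 1 to 4. All model values lay above all control values, and the log2 change was 3.62 ± 0.17 (SE; edgeR adjusted p = 2.07e-07, and 9.2e-05 with controls 1 to 3 summed). Each SE here comes from the fit with 4 controls; with controls 1 to 3 summed the SE was larger, by a factor of 1.28 at the median over tested genes. Spon1, a secreted matrix protein, had 16.1, 12.7, 18.4 and 12.6 CPM in the model, against 0.551, 1.18, 0.583 and 0.285 CPM in control. It was close to absent from every control library, and its log2 change was 4.48 ± 0.37 (edgeR adjusted p = 2.24e-05, and 0.000699 summed). Lcor, a ligand-dependent corepressor of nuclear receptors, had 27.0, 25.6, 26.4 and 27.9 CPM in the model and 7.23, 6.75, 7.78 and 4.71 CPM in control. The model libraries were within about 1 CPM of their mean of 26.7 ± 0.98 CPM (SD), and the log2 change was 2.01 ± 0.14. Gnptab, which tags enzymes for transport to the lysosome, had 148, 133, 156 and 117 CPM in the model, against 58.5, 53.6, 60.5 and 47.7 CPM in control, without overlap. Slfn9, of the Schlafen family, rose by 2.04 ± 0.15 on the log2 scale, Klhl11, an adaptor of a ubiquitin ligase, by 2.33 ± 0.21, Zfp169, a zinc finger gene, by 1.56 ± 0.13, and Setdb2, a histone methyltransferase, by 1.01 ± 0.09. Hipk2, a nuclear kinase that can phosphorylate p53, rose by 1.68 ± 0.09, but its deposited coordinates overlap those of Tbxas1 and, since the strand setting of the counting was not given in the sources used here, the reads of such a pair may be mixed; later overlaps are named for the same reason.

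Among the genes that fell, Alox15, a lipoxygenase of eosinophils and macrophages, had 0.679, 2.06, 0.748 and 0.753 CPM in the model, against 244, 254, 250 and 239 CPM in control. Its log2 change was -7.88 ± 0.32 (edgeR adjusted p = 7.23e-08, and 1.36e-05 summed). Ms4a1, which encodes the B cell antigen CD20, had 0.123, 0, 0 and 0 CPM in the model, against 83.5, 78.3, 75.0 and 102 CPM in control. The model libraries held 2 counts in all and the control libraries 5268, a ratio of 2576-fold adjusted for depth, with a 95% counting interval of 713 to 21276. Counting intervals cover counting error only. The B lineage and eosinophil marker lists were lower in the model as well, and Ms4a1 is a member of the first. Clec4d, a C-type lectin receptor of myeloid cells, had 2.84, 3.16, 3.95 and 2.91 CPM in the model and 74.4, 73.3, 77.1 and 58.4 CPM in control, a log2 change of -4.46 ± 0.21. Il1b, the cytokine interleukin 1 beta, had 0.556, 1.37, 1.77 and 1.36 CPM in the model, against 39.9, 40.6, 43.9 and 54.0 CPM in control. Its values did not overlap, and the log2 change was -5.14 ± 0.33 (edgeR adjusted p = 4.38e-06, and 0.000227 summed). Ypel3, a small nuclear protein that slows cell growth, had 30.4, 43.8, 32.4 and 35.6 CPM in the model and 142, 135, 139 and 190 CPM in control. Edaradd, an adaptor of a receptor of the tumor necrosis factor family, fell by 2.13 on the log2 scale, and Siglecg, an inhibitory sialic acid receptor of B cells, fell by 2.04. The receptors Fcer2a (log2 change -6.78 ± 0.51), Ccr3 (-4.42 ± 0.33) and Cd3e (-4.45 ± 0.35), of B cells, eosinophils and T cells, were also among the 12 leading genes that fell. The T and NK marker list, which includes Cd3e, had a median log2 change of -1.41 (-1.26 with trends removed). Its median lay 0.71 to 1.34 below controls 1 to 3 in the model libraries. Its share of counts overlapped that of control, at 0.0159% to 0.0274% of model counts and 0.0161% to 0.0169% of control counts. Of its 6 genes 3 were called lower, and 2 had estimates above 0.

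**Figure D2:**
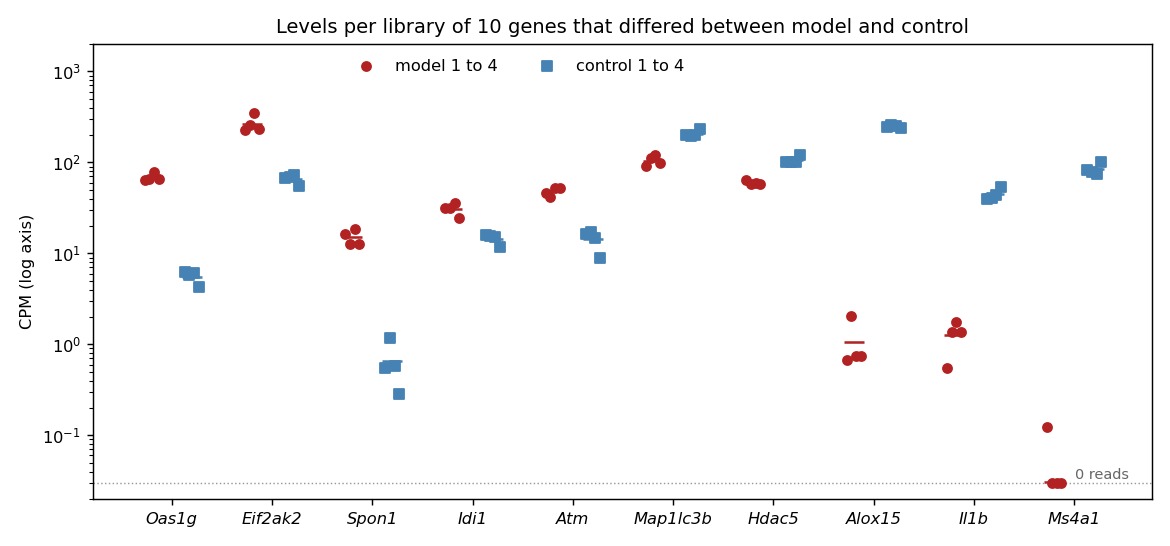
CPM of 10 genes on a log axis in model 1 to 4 (red circles) and control 1 to 4 (blue squares); horizontal bars are group means, and libraries with 0 reads are drawn on the dotted line. No gene has overlapping groups, from Oas1g at 63.8 to 79.2 CPM in the model against 4.28 to 6.18 CPM in control, to Ms4a1, which has 2 counts in the model.

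The 10 called genes with the largest gains in mean CPM were, from the largest, mt-Co1, Mpo, mt-Nd5, Cybb, Flna, C3, Plac8, Prtn3, Rnf213 and Ctsg. Of mt-Co1 and mt-Nd5, which the mitochondrial genome encodes, mt-Nd5 had 2370, 2107, 2018 and 2599 CPM in the model, against 1150, 1195, 1171 and 709 CPM in control, though its reads can mix with those of the overlapping mt-Nd6. Mpo, the myeloperoxidase of primary granules, had 3312, 2066, 2560 and 3461 CPM in the model and 1398, 1462, 1447 and 1284 CPM in control. Rnf213, a large ubiquitin ligase that interferon induces, had 665, 769, 1150 and 537 CPM in the model against 147, 145, 152 and 91.5 CPM in control, a log2 change of 2.54 ± 0.24. Prtn3, which overlaps Plppr3, and Ctsg, serine proteases of the same granules as Mpo, rose by 1.31 ± 0.24 and 1.47 ± 0.26. Cybb, a subunit of the NADPH oxidase of phagocytes, had 2801, 2623, 3120 and 2111 CPM in the model, against 1911, 1877, 1856 and 785 CPM in control. Flna, a protein that links actin filaments, rose by 0.53 ± 0.19, and C3, the central complement protein, by 0.75 ± 0.25. Plac8, a protein of myeloid cells, had 1567, 984, 1777 and 1342 CPM in the model and 736, 797, 746 and 557 CPM in control. The calls of Mpo, Prtn3, Ctsg, Plac8, C3, Cybb, Flna and mt-Co1 ended without control 4, where the log2 changes were 0.99, 1.26, 1.37, 0.90, 0.53, 0.50, 0.35 and 0.52. Those of mt-Co1, C3, Cybb and Flna also ended without model 1 or 2, those of C3, Cybb and Flna without model 3 and those of mt-Co1 and Flna without model 4, and Cybb and Flna were not called with the trends removed. The largest losses in mean CPM were those of Hba-a1 and Hbb-bt, globin chains with near-identical copies, and of S100a8, an abundant calcium-binding protein of neutrophils. Hba-a1 had 109, 4187, 2386 and 1519 CPM in the model and 12858, 11887, 11885 and 53235 CPM in control, and S100a8 had 5647, 5279, 8490 and 5781 CPM in the model and 14616, 15315, 14740 and 10565 CPM in control. Hbb-bt fell by 4.24 on the log2 scale. All 3 calls ended without control 4, where the log2 changes were -2.57, -1.24 and -3.23 for Hba-a1, S100a8 and Hbb-bt; that of Hba-a1 ended without each model library in turn, that of S100a8 without model 1, 2 or 4 and that of Hbb-bt without model 3, and Hba-a1 and S100a8 were not called with the trends removed. Erythroid marker counts moved the same way (given above). The next loss was that of Prg2, the major basic protein of eosinophils, with 49.4, 393, 81.6 and 154 CPM in the model, against 2553, 2619, 2584 and 3884 CPM in control. Retnlg, a resistin-like protein of neutrophils, had 85.6, 234, 394 and 112 CPM in the model and 2919, 3049, 2996 and 2324 CPM in control. Mmp9, a gelatinase of late granulocytes, fell by 1.64 on the log2 scale, and Ucp2, a mitochondrial uncoupling protein whose coordinates overlap Dnajb13, fell by 1.34. Several of the most abundant transcripts were not called in either fit: Ngp, a granule protein of maturing granulocytes, had 7499.8 to 19801 CPM in the model and 9627 to 16934 CPM in control, and Chil3, a chitinase-like protein, had 2827 to 8070.3 CPM in the model and 3276 to 5554 CPM in control.

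Of 105 classes with at least 5 tested genes, those that interferon induces had the highest share that rose. Type I interferon binds its receptor and activates STAT proteins with IRF9, which switch on antiviral genes through a short promoter element. Of 39 tested interferon-stimulated genes, 30 rose and 1 fell, with a median log2 change of 1.54, beside 17.7%, 15.9% and a median of 0.00 over all tested genes. With the trends removed 32 rose and none fell. Without control 4, 17 of the class were called higher. The class median lay above controls 1 to 3 in every model library, by 0.88 to 1.84 on the log2 scale, and 0.62 below them in control 4. Eif2ak2, the kinase PKR that stops translation when it binds viral RNA, had 226, 255, 345 and 232 CPM in the model and 67.1, 69.0, 71.7 and 54.4 CPM in control. Model 3 was the highest, no control reached the model range, and the log2 change was 2.01 ± 0.15 (edgeR adjusted p = 8.6e-06, and 0.000611 summed). Oas1a and Oasl1, from the family of Oas1g, rose by 1.77 ± 0.16 and 1.75 ± 0.16. Oas1a and Oas1g are similar in sequence, so counting could divide reads between them.

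The promoters of these genes are shown because they hold the kind of element named above. Windows from 250 bases before to 50 bases after each start site, 300 bases in all, were taken from RefSeq on build GRCm38.p6, and 10015 of the 12541 tested gene symbols had at least 1 window. Capitals mark matches to GAAA, any 2 bases and GAAA, searched on both strands, with overlapping matches counted each; all 3 sequences are on the minus strand, printed 5′ to 3′.
Oas1g, chr5:120887564-120887863: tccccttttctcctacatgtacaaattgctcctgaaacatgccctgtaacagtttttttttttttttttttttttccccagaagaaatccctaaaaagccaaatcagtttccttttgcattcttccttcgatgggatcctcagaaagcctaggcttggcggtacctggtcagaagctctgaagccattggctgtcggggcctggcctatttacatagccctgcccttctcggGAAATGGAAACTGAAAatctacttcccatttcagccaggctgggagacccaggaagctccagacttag
Oas1a, chr5:120907476-120907775: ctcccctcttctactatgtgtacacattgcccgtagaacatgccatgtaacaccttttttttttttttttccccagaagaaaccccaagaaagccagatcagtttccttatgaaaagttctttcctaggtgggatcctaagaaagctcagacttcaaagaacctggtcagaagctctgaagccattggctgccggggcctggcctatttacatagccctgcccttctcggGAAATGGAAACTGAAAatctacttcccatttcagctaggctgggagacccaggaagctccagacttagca
Eif2ak2, chr17:78882523-78882822: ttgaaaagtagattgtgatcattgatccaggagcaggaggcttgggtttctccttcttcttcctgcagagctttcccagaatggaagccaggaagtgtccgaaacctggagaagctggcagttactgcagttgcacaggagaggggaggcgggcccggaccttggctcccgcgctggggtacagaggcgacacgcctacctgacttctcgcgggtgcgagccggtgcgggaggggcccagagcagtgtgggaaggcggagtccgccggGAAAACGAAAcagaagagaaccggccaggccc
The windows of Oas1g and Oas1a hold a pair of overlapping matches, which start 18 and 20 bases before the start site, and that of Eif2ak2 holds 1 match, 18 bases after it. The motif was found in 41.7% of 36 windows of interferon-stimulated genes (15 windows) and in 3.29% of 12795 windows of all tested genes. It was in 10.9% of 531 windows of genes that rose by more than 1 on the log2 scale, a set that includes interferon-stimulated genes such as Oas1g. Among genes that fell by more than 1, it was in 2.86% of 699 windows. A match is a description of the sequence and not evidence of binding.

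Sensors of foreign nucleic acid belong to the same defence. Ifih1 and Ddx58, described here, are also members of the interferon-stimulated list, so the classes overlap. Of 34 pattern recognition receptors 12 rose and 2 fell, with a median log2 change of 0.60 (10 and 1 with trends removed, 6 and 3 without control 4). The class median lay above controls 1 to 3 in model 1, 2 and 3, by 0.30, 0.39 and 0.56. In model 4 it lay 0.13 below them, and in control 4 it lay 0.72 below. Ifih1, which senses long RNA duplexes, had 152, 172, 260 and 123 CPM in the model, against 41.7, 43.6, 43.4 and 21.5 CPM in control. Its values did not overlap, and the log2 change was 2.23 ± 0.26. Dhx58, its regulator, rose by 1.57 ± 0.18, Ddx58, the RNA sensor RIG-I, by 1.30 ± 0.19, and Cgas, which senses DNA in the cytosol, by 1.52 ± 0.17. Of 23 genes of MHC class I presentation and the immunoproteasome 5 rose and none fell (6 with trends removed, 1 without control 4, 2 without model 1). The median of this class lay above controls 1 to 3 in model 1, 2 and 3, by 0.43, 0.47 and 1.01, and 0.22 below them in model 4. Erap1, which trims peptides for MHC class I, had 153, 143, 197 and 137 CPM in the model and 59.2, 66.7, 63.9 and 41.4 CPM in control; it overlaps Cast in the deposited coordinates. Nlrc5, the activator of MHC class I genes, varied more, with 166, 221, 392 and 52.4 CPM in the model against 43.7, 43.1, 44.1 and 34.6 CPM in control. Model 4 was the lowest, and the call of Nlrc5 ended without control 4, with a log2 change of 2.25. Of 8 interferon regulatory factors 1 rose and 2 fell (1 and 2 with trends removed; 0 and 2 without control 4). Irf4, needed for plasma cells and some T cells, had 10.7, 14.1, 11.1 and 9.84 CPM in the model and 82.1, 88.0, 83.5 and 134 CPM in control. Irf3, which overlaps Bcl2l12, fell by 0.80, and Irf7, which interferon induces and which overlaps Phrf1, rose by 1.46 ± 0.30, a call that ended without control 4 (1.35).

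The next classes are those that DNA damage and cell division concern. Over all tested genes 17.7% rose and 15.9% fell, or 12.1% and 12.8% with trends removed and 5.81% and 4.46% without control 4. With trends removed, the share of crosslink and strand break repair genes that rose was near that of all genes. Of 44 genes of crosslink and strand break repair 13 rose and 3 fell, with a median of 0.28 (6 and 3 with trends removed; 8 and 3 without control 4). Of 12 Fanconi genes, the Fanc genes with Brip1, Palb2 and Slx4, whose products unhook crosslinks, 5 rose and none fell, with a median of 0.62 (4 with trends removed, 2 without control 4). Atm, the kinase that signals strand breaks, had 46.2, 41.4, 52.9 and 52.5 CPM in the model, against 16.3, 17.2, 14.8 and 8.84 CPM in control. All model values were above the control values, with control 4 the lowest, and the log2 change was 1.75 ± 0.17 (edgeR adjusted p = 3.31e-05, and 0.000821 summed). Rad50, of the complex that holds broken ends, had 106, 92.7, 84.1 and 108 CPM in the model and 49.0, 51.7, 54.1 and 43.4 CPM in control. Palb2 and Brip1, partners of BRCA2 and BRCA1, rose by 0.83 ± 0.10 and 0.71 ± 0.08. Atr, the kinase that signals stalled forks, rose by 0.99 ± 0.11, but was not called once the trends were removed (0.33). Lig4, the ligase of end joining, went the other way, with 9.32, 10.4, 11.2 and 11.6 CPM in the model against 27.1, 30.9, 29.4 and 36.4 CPM in control, a log2 change of -1.54 ± 0.15. In base excision repair, which removes damaged bases, the glycosylase Neil1 had 6.79, 7.69, 6.39 and 6.23 CPM in the model and 31.1, 30.0, 34.7 and 60.0 CPM in control, while its relative Neil3 rose by 0.70 ± 0.09.

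The p53 targets did not rise as a class: of 36 tested, 4 rose and 10 fell, with a median of -0.23 (3 and 10, with a median of -0.07, with trends removed; 3 and 4 without control 4). Ephx1, an epoxide hydrolase, had 2.66, 3.29, 2.24 and 1.76 CPM in the model, against 9.55, 8.82, 9.14 and 19.2 CPM in control. Sertad1, a cell cycle regulator, fell by 1.19, Polk, a polymerase that copies past damage and overlaps Gm17622, rose by 0.90 ± 0.13, and Apaf1, the scaffold of the apoptosome, rose by 0.84 ± 0.14. Of 30 apoptosis regulators 8 rose and 5 fell (8 and 2 with trends removed; 4 and 1 without control 4; 3 fell without model 1). Bmf, a BH3-only killer protein, had 24.0, 23.5, 33.9 and 18.5 CPM in the model and 61.4, 61.1, 57.2 and 90.3 CPM in control. Xiap, an inhibitor of caspases, rose by 0.81 ± 0.13. Casp2, an initiator caspase, rose by 0.50 ± 0.07. Of 37 genes of DNA replication 1 rose and 3 fell, with a median of -0.05 that was 0.04 under the FPKM values, 0.12 without control 4 and also above 0 without model 1 or model 3 (1 and 3 with trends removed; 1 and 0 without control 4; 1 fell without model 1). The gene that rose was Pole, a replicative polymerase, by 0.79 ± 0.11. Of 34 genes of mitosis and the spindle 13 rose and 2 fell, with a median of 0.29 (5 and 2 with trends removed, 3 and 0 without control 4). With trends removed, the share of this class that rose was near the 12.1% over all tested genes. Cenpe, a motor at the centromere, had 228, 233, 198 and 241 CPM in the model, against 126, 120, 124 and 127 CPM in control, and Anln, a protein of the cleavage ring, rose by 0.64 ± 0.10. Of 30 kinesins 12 rose and 1 fell (6 and 2 with trends removed; 5 and 1 without control 4). Kif24, a depolymerising kinesin at centrioles, had 48.8, 48.7, 40.3 and 49.9 CPM in the model and 21.6, 21.5, 21.1 and 17.6 CPM in control, and Kif20b and Kif14, which act in cell division, rose by 1.05 ± 0.10 and 0.77 ± 0.10.

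Lipid genes did not share a direction. Cholesterol synthesis, which runs from acetyl-CoA through mevalonate, had 12 of 23 tested genes higher and none lower, with a median log2 change of 0.49 that stayed at 0.49, with 10 higher, when the trends were removed. Its median was above controls 1 to 3 in each model library, by 0.29 to 0.69, and 0.22 below them in control 4. Without control 4, 2 genes of the class were called. One was Idi1, the isomerase of the pathway, with 31.6, 31.9, 35.4 and 24.3 CPM in the model and 15.8, 15.4, 15.2 and 11.7 CPM in control, a log2 change of 1.08 ± 0.13 (edgeR adjusted p = 9.76e-05, and 0.00173 summed). The other was Stard4, which carries cholesterol within the cell, with 89.3, 75.2, 87.9 and 75.2 CPM in the model against 47.6, 50.3, 47.9 and 39.6 CPM in control. The letters TCACNCCAC, of the kind that sterol-responsive factors bind, were found in 1 of 19 promoter windows of these genes and in 1.12% of all windows.

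Fatty acid synthesis had 4 of 19 genes higher and 4 lower, 21.1% each, beside 17.7% and 15.9% over all tested genes. With trends removed 5 rose and 3 fell, and without control 4, 3 rose and 2 fell. Scd1, a desaturase, had 4.75, 6.73, 3.40 and 6.83 CPM in the model, against 41.8, 38.4, 39.3 and 68.0 CPM in control, a log2 change of -3.10 ± 0.27 (edgeR adjusted p = 2.26e-05, and 0.000611 summed). Its relative Scd2 had 186, 115, 136 and 135 CPM in the model and 67.4, 72.5, 70.8 and 62.5 CPM in control. The desaturases moved in opposite directions, without overlap of the groups in either. The acetyl-CoA carboxylases Acaca, which overlaps Gm11437, and Acacb rose by 1.35 ± 0.12 and 1.74 ± 0.24. Of 14 genes of phospholipases A2 and lipoxygenases 1 rose and 5 fell (1 and 3 with trends removed; 0 and 2 without control 4; 3 fell without model 1). Beside Alox15, Alox12e, an epidermal lipoxygenase, had 0.432, 0.275, 0 and 0 CPM in the model and 4.65, 3.79, 3.44 and 3.92 CPM in control. Among 18 cytochrome P450 enzymes 4 rose and 1 fell (4 and 1 with trends removed; 1 and 1 without control 4). Cyp4f18, an oxidase of leukotrienes in neutrophils whose coordinates overlap Zfp961, fell by 2.65, and Cyp1b1, which oxidises steroids and xenobiotics, rose by 3.40 ± 0.53 with 2.78, 1.99, 2.86 and 4.02 CPM in the model, against 0.122, 0.533, 0.194 and 0.214 CPM in control.

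Several classes of short genes for basic cell functions had more members that fell than rose, and removing the length trend changed their counts. Of 37 nuclear subunits of respiratory complex I, the first enzyme of the respiratory chain, 24 fell and none rose, with a median of -0.46; with trends removed 9 fell, 1 rose and the median was -0.21. Without control 4, 4 fell, and without model 2, 15 fell. Ndufa1 had 19.9, 16.4, 22.1 and 21.0 CPM in the model and 33.1, 39.0, 35.8 and 51.9 CPM in control, a log2 change of -1.01 ± 0.17 that was -0.61 with trends removed. Ndufa3, which overlaps Tfpt, fell by 0.77, and Ndufb1, which overlaps Cpsf2, fell by 0.95. Of 77 mitochondrial ribosomal proteins 27 fell and none rose, with a median of -0.29 (15 fell and 1 rose, with a median of -0.21, with trends removed; 1 fell without control 4 and 16 without model 3). Of 89 cytosolic ribosomal proteins 21 fell and none rose, with a median of -0.28, but with trends removed 7 fell and 1 rose, with a median of 0.00. Without control 4 none of them was called, and without model 2, 11 fell. Control 4 itself lay 0.46 above controls 1 to 3 in this class, and also 0.46 above in complex I subunits and 0.45 in mitochondrial ribosomal proteins. In the classes described next, control 4 lay 0.32 above for the proteasome, 0.45 for RNA polymerase II and 0.55 for small nuclear ribonucleoproteins. Of 38 constitutive proteasome subunits 9 fell and 1 rose (4 and 2 with trends removed; none and 1 without control 4; 5 fell without model 1). Of 13 subunits of RNA polymerase II 7 fell and 2 rose (4 and 3 with trends removed; 1 fell without control 4). Polr2k had 6.17, 5.83, 6.87 and 8.58 CPM in the model, against 16.9, 17.3, 17.0 and 17.4 CPM in control, and kept a log2 change of -1.13 with trends removed. Of 23 proteins of small nuclear ribonucleoproteins, the core of the spliceosome, 8 fell and none rose (8 fell with both trends removed and 3 with the length trend alone removed; 1 fell without control 4, 5 without model 1). Snrpb, a core member, fell by 0.63.

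Several classes of long genes, of chromatin and of ubiquitin removal, had more members that rose than fell, again fewer with the trends removed. Of 43 ubiquitin specific peptidases, which take ubiquitin off proteins, 19 rose and none fell, with a median of 0.30; with trends removed 12 rose and 2 fell, with a median of 0.04, and without control 4, 8 rose. Usp24 had 231, 189, 190 and 228 CPM in the model and 96.1, 90.6, 94.6 and 85.0 CPM in control, a log2 change of 1.19 ± 0.10 that was 0.81 with trends removed. Usp9x rose by 1.41 ± 0.15. Usp44, a mitotic checkpoint regulator, had 4.45, 3.43, 4.15 and 4.17 CPM in the model against 0.306, 0.888, 1.23 and 0.428 CPM in control. Of 31 lysine methyltransferases 13 rose and 2 fell (5 and 2 with trends removed; 8 and 0 without control 4). Kmt2a, which methylates histone H3 and is needed by blood stem cells, had 151, 152, 166 and 154 CPM in the model, against 86.3, 84.6, 83.0 and 90.3 CPM in control. Its log2 change was 0.86 ± 0.07 (edgeR adjusted p = 2.24e-05, and 0.00089 summed). Kmt2e, which overlaps Srpk2, rose by 1.43 ± 0.20. Of 29 chromodomain and SWI/SNF remodelers 14 rose and 5 fell, with a median of 0.29, and with trends removed 5 rose and 5 fell, with a median of 0.01 (3 and 7, with a median of -0.05, with the length trend alone removed; 5 and 2 without control 4; 2 fell without model 3). Chd9 and Chd1 rose by 1.06 ± 0.10 and 0.64 ± 0.09, and Smarca4, the ATPase BRG1, had 180, 186, 187 and 214 CPM in the model and 291, 288, 292 and 422 CPM in control.

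Of 17 genes of DNA methylation and hydroxylation 9 rose and 1 fell, with a median of 0.40 (5 and 0 with trends removed; 6 and 0 without control 4). Tet2, which oxidises 5-methylcytosine, had 148, 109, 111 and 138 CPM in the model, against 62.3, 63.6, 58.0 and 35.1 CPM in control. Dnmt1, the maintenance methyltransferase, rose by 0.72 ± 0.09, and Mbd1, a reader of methylated DNA, by 0.48 ± 0.07. Histone deacetylases and sirtuins differed from these: of 18 tested, 8 fell and 1 rose, with a median of -0.31, and 9 fell and 2 rose, with a median of -0.35, with trends removed (3 fell without control 4). Hdac5, a deacetylase that shuttles between cytoplasm and nucleus, had 63.3, 58.1, 59.0 and 58.4 CPM in the model and 102, 101, 100 and 120 CPM in control. No library overlapped, and the log2 change was -0.83 ± 0.08 (edgeR adjusted p = 2.95e-05, and 0.000726 summed). Hdac8 fell by 1.07 and Hdac10 fell by 1.62. The zinc finger protein genes, mostly transcription factors, formed the largest class. Of 331 tested 89 (26.9%) rose and 22 (6.65%) fell, with a median of 0.22 (51 and 19, with a median of 0.11, with trends removed, 30 and 5 without control 4). Over all tested genes 17.7% rose and 15.9% fell, or 12.1% and 12.8% with trends removed. The median GC content of the class was 43.6%, and of all tested genes with 41.2% to 43.7% GC, 28.6% rose. Zfp933 had 19.7, 19.2, 18.3 and 17.8 CPM in the model against 8.51, 10.1, 7.58 and 7.27 CPM in control, and Zfp609 rose by 1.23 ± 0.14. Of 15 forkhead factors 6 fell and 3 rose (7 and 2 with trends removed; 3 fell without control 4; 1 rose without model 1). Foxo1, a factor of B cells and of stem cell quiescence, had 12.5, 15.8, 14.4 and 14.6 CPM in the model and 42.7, 40.5, 40.9 and 59.9 CPM in control.

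**Figure D3:**
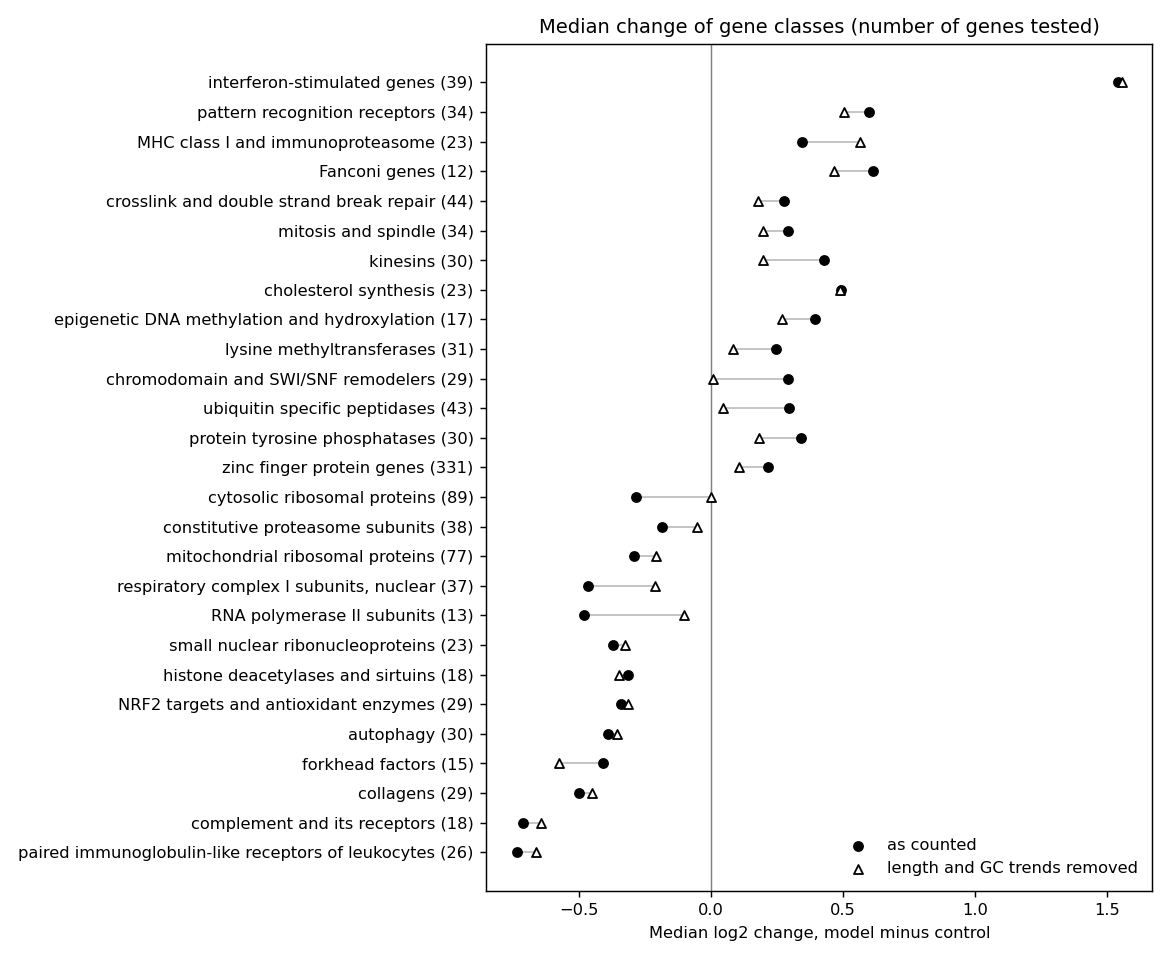
Median log2 change, model minus control, over the tested genes of 27 classes (numbers tested in brackets), as counted (black circles) and with length and GC trends removed (open triangles). Interferon-stimulated genes stay at 1.54 and 1.56, while cytosolic ribosomal proteins move to 0.00.

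Autophagy wraps parts of the cell in a membrane and delivers them to the lysosome. Of 30 tested autophagy genes 11 fell and 1 rose, with a median of -0.39, and 12 fell and 1 rose, with a median of -0.36, with trends removed (5 fell without control 4). Map1lc3b, the LC3 protein of the autophagosome membrane, had 90.3, 111, 120 and 97.4 CPM in the model, against 201, 193, 200 and 230 CPM in control. All model values were below the control values, and the log2 change was -0.98 ± 0.10 (edgeR adjusted p = 4.06e-05, and 0.000976 summed), though the gene overlaps Zcchc14. Its relatives Gabarap and Gabarapl2 had no overlapping neighbour; Gabarap had 176, 207, 218 and 183 CPM in the model and 322, 316, 318 and 349 CPM in control, and Gabarapl2 fell by 1.65. Tfeb, the transcription factor of lysosome and autophagy genes, had 20.4, 27.1, 21.8 and 16.7 CPM in the model against 44.5, 42.6, 42.6 and 55.7 CPM in control. Lysosomal genes did not follow as a class: of 42 tested 9 rose and 2 fell, with trends removed as well (0 and 2 without control 4). Ctsd, a lysosomal protease, fell by 0.96, but overlaps Gm49369.

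Of 29 NRF2 targets and antioxidant enzymes, which keep peroxides and electrophiles low, 9 fell and 3 rose, with a median of -0.34 (7 and 3 with trends removed; 4 and 0 without control 4). Taldo1, an enzyme of the pentose phosphate pathway, had 302, 344, 366 and 310 CPM in the model, against 696, 709, 699 and 735 CPM in control, a log2 change of -1.10 ± 0.11. Hmox1, which breaks down heme, had 22.6, 41.6, 30.1 and 27.9 CPM in the model and 70.7, 71.2, 68.4 and 79.9 CPM in control. In the unfolded protein response, which adjusts folding in the endoplasmic reticulum, 7 of 30 genes rose and 4 fell (8 and 2 with trends removed; 2 and 2 without control 4; 2 fell without model 1). The sensors Atf6 and Ern1 rose by 0.83 ± 0.09 and 1.17 ± 0.19. Herpud1, of the machinery that degrades misfolded proteins, had 65.4, 61.8, 58.6 and 68.4 CPM in the model and 118, 120, 118 and 155 CPM in control, and its partner Syvn1, a ubiquitin ligase that overlaps Mrpl49, fell by 1.20. Of 17 circadian clock genes 3 (17.6%) rose and 4 (23.5%) fell, beside 17.7% and 15.9% over all tested genes. With trends removed 3 rose and 3 fell, and without control 4, 1 and 1. The partners Clock and Arntl, which bind DNA together, moved apart: Arntl fell by 2.07 ± 0.25 and Clock rose by 0.85 ± 0.13. The hour of sampling was not given in the sources used here.

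Among classes of the cell surface and of secreted proteins, 7 of 18 complement genes and receptors fell and 2 rose, with a median of -0.71 (6 and 2 with trends removed; 3 and 0 without control 4). Cfp, the properdin that stabilises the alternative convertase, had 65.6, 72.8, 70.8 and 63.3 CPM in the model, against 158, 155, 158 and 141 CPM in control, a log2 change of -1.17 ± 0.10. Cr2, the complement receptor of B cells, fell by 3.94. Of 26 paired immunoglobulin-like receptors of leukocytes 10 fell and 1 rose, with a median of -0.74 (4 and 1 with trends removed; 5 and 1 without control 4; 5 fell without model 1). Of 28 chemokines and receptors 8 fell and 4 rose (8 and 2 with trends removed; 6 and 0 without control 4; 5 fell without model 1, and 2 rose without model 3). Ccl6, a chemokine of myeloid cells, had 35.4, 89.7, 50.8 and 38.4 CPM in the model and 368, 382, 376 and 384 CPM in control. Cxcr5, which overlaps Bcl9l, and Ccr7, homing receptors of lymphocytes, fell by 5.23 and fell by 4.06. Of 44 interleukins and receptors 12 fell and 6 rose (13 and 5 with trends removed; 8 and 1 without control 4). Il5ra, the eosinophil receptor of interleukin 5, fell by 3.39, Il16, which overlaps Stard5, fell by 1.16, and Il1rl2, the receptor of interleukin 36, had 63.2, 51.5, 44.6 and 65.7 CPM in the model against 18.8, 21.6, 20.9 and 11.4 CPM in control. Of 22 integrins 6 rose and 2 fell (6 and 2 with trends removed; 2 and 0 without control 4). Itga4, the integrin that holds progenitors in the marrow, rose by 1.51 ± 0.16, but overlaps Cerkl, and Itga5 rose by 0.59 ± 0.08. Of 29 collagens 7 fell and 4 rose, with a median of -0.50 (6 and 3 with trends removed; 1 and 0 without control 4; 2 rose without model 4).

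Where a class above had none called in a direction by edgeR, unadjusted p-values under 0.05 in both fits and DESeq2 gave few more. At the unadjusted threshold 1 mitochondrial ribosomal protein was higher and 1 ubiquitin specific peptidase was lower, and none was found in that direction among complex I subunits, cytosolic ribosomal proteins, small nuclear ribonucleoproteins, Fanconi genes, cholesterol synthesis or MHC class I genes. DESeq2 called 1 mitochondrial ribosomal protein higher and 0 genes in that direction in the other classes just named.

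Classes of transporters and signalling enzymes did not share a direction, though some of them leaned up or down. Of 234 solute carriers 36 (15.4%) rose and 38 (16.2%) fell, near the 17.7% and 15.9% over all tested genes. Their median was -0.06, and 0.04 under the FPKM values. With trends removed 25 rose and 34 fell, without control 4, 9 and 11, and without model 1, 22 and 21. Slc4a7, a bicarbonate carrier, averaged 64.6 ± 8.44 CPM in the model (SD, n = 4), against 35.6, 35.5, 33.7 and 24.0 CPM in control, and rose, and Slc30a4, a zinc exporter, fell by 1.49. Of 33 ATP-binding cassette transporters 7 rose and 2 fell (6 and 2 with trends removed; 3 and 1 without control 4). Abcc4 and Abcc1, pumps that export drugs and glutathione conjugates, had 135, 106, 125 and 127 CPM and 61.6, 53.1, 51.1 and 64.7 CPM in the model, against 65.9, 65.7, 66.0 and 35.0 CPM and 35.6, 35.5, 35.5 and 24.3 CPM in control. Both rose, and Abcc3, another such pump, had 4.88, 5.29, 6.12 and 7.08 CPM in the model and 25.9, 24.3, 25.1 and 11.5 CPM in control. Of 30 protein tyrosine phosphatases 10 rose and none fell (1 was lower at an unadjusted p under 0.05 and 1 by DESeq2; 5 rose with trends removed, 1 without control 4, 5 without model 1). Of 18 dual specificity phosphatases, which switch off MAP kinases, 5 fell and 2 rose (4 and 1 with trends removed; 2 and 1 without control 4; 3 fell without model 3), and Dusp6 had 14.6, 26.8, 19.2 and 16.5 CPM in the model against 54.8, 58.8, 54.2 and 60.7 CPM in control. Of 23 nuclear receptors 8 rose and 4 fell (5 and 2 with trends removed; 2 and 1 without control 4; 4 rose without model 1). Esr1, the estrogen receptor alpha, had 31.6, 23.6, 27.6 and 21.2 CPM in the model, against 9.86, 10.6, 11.2 and 9.34 CPM in control, a log2 change of 1.34 ± 0.13. In ribosome biogenesis 7 of 40 genes (17.5%) rose, near the 17.7% over all tested genes. In this class 2 fell, and the counts were the same with trends removed (2 and 0 without control 4). Utp20 and Ddx21, which process ribosomal RNA, rose by 0.92 ± 0.10 and 0.68 ± 0.10.

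**Figure D4:**
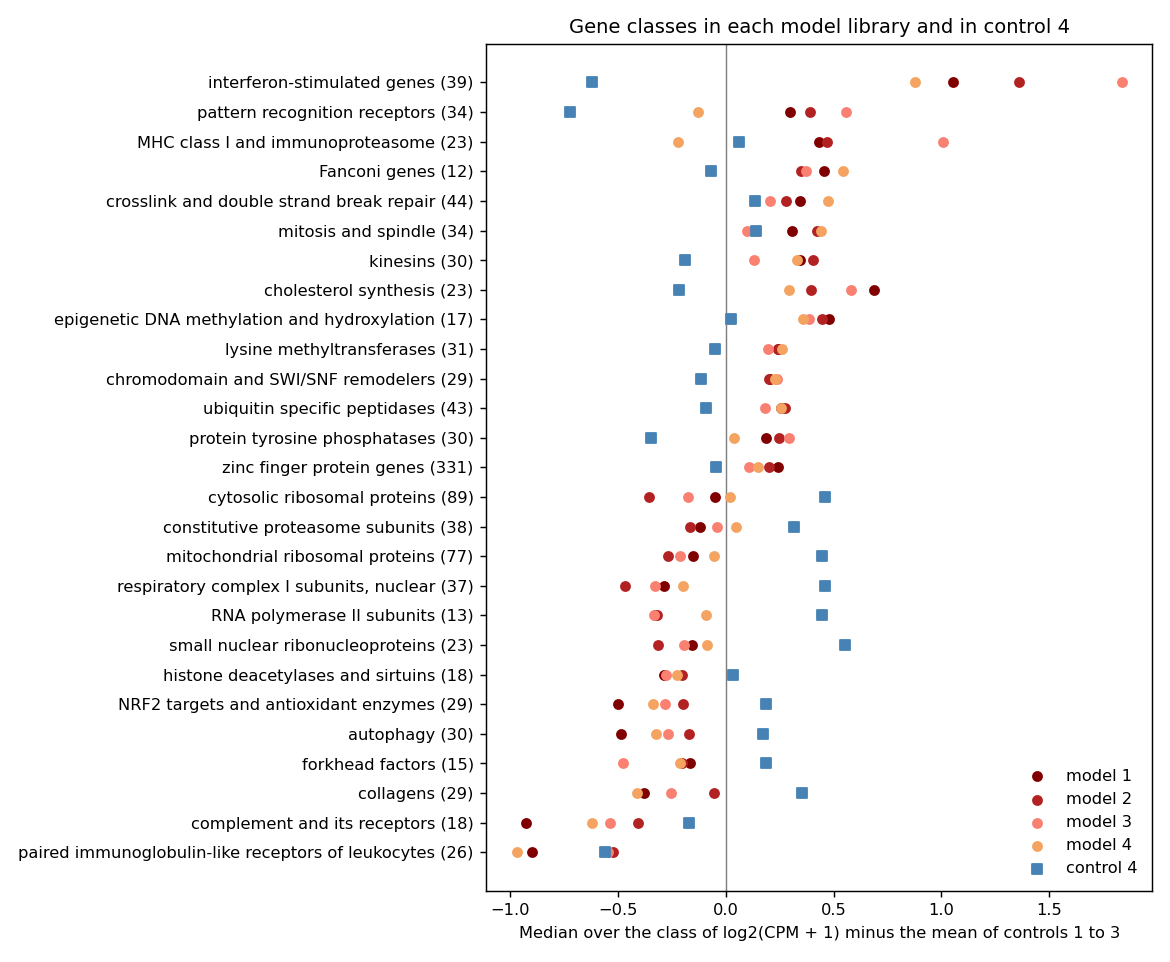
Median over each of 27 classes of log2(CPM + 1) minus the mean of controls 1 to 3, in model 1 to 4 (red circles, dark to light) and control 4 (blue squares), with the number of tested genes in brackets. For interferon-stimulated genes the model libraries lie at 0.88 to 1.84 and control 4 at -0.62; for cytosolic ribosomal proteins control 4 lies at 0.46, farther from controls 1 to 3 than any model library.

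The Pathway column of the deposited table grouped the genes by annotated process. It names 334 pathways, of which 280 had at least 20 tested genes, and 5293 tested genes had a pathway. By the share of genes that rose, the leading pathways were Ovarian steroidogenesis (11 of 27), RIG-I-like receptor signaling (17 of 45), Fanconi anemia (18 of 50), NOD-like receptor signaling (43 of 137) and Homologous recombination (12 of 39). The Fanconi anemia pathway had 14 genes called higher with trends removed and 9 without control 4, RIG-I-like receptor signaling 11 and 6, NOD-like receptor signaling 31 and 13, and Homologous recombination 8 and 7. Ovarian steroidogenesis had 6 with trends removed, 3 without control 4 and 7 without model 1. By the share that fell, the leading pathway was Oxidative phosphorylation, with 56 of 107 genes lower and 4 higher, beside 25 lower and 6 higher with trends removed and 8 lower without control 4. Most of the pathways next to it list the same genes: 40 of the 55 lower genes of Non-alcoholic fatty liver disease, 46 of 61 of Diabetic cardiomyopathy, 46 of 80 of Prion disease and 46 of 89 of Huntington disease were also lower genes of Oxidative phosphorylation, and these shared genes were 71.4% of the Oxidative phosphorylation genes in the case of fatty liver disease and 82.1% in the other cases. Arachidonic acid metabolism shared none: 11 of its 30 genes fell and 6 rose (8 and 4 with trends removed; 4 and 0 without control 4; 7 and 3 without model 1), and Alox15 is among them.

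**Figure D5:**
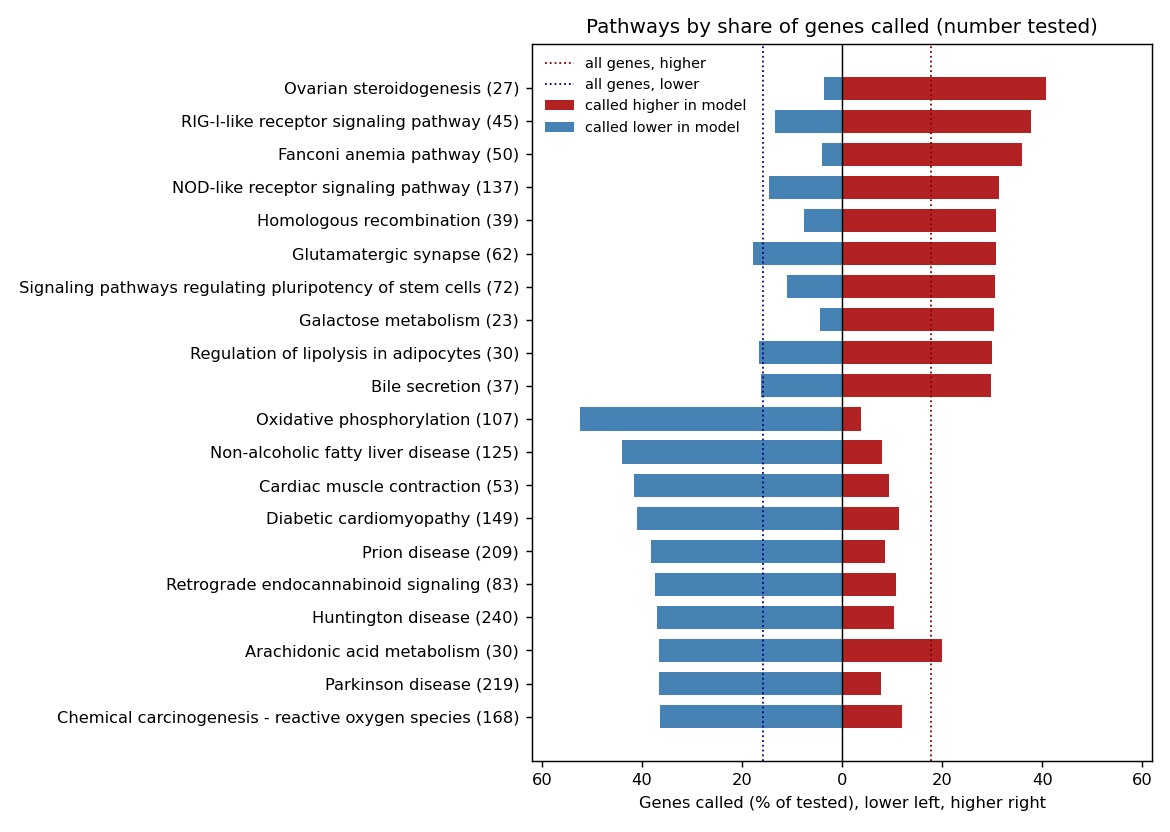
Share of tested genes called higher (red, to the right) or lower (blue, to the left) in the model, in percent, for the 10 pathways with the highest share in each direction among those with at least 20 tested genes (numbers in brackets). Dotted lines mark the shares over all genes, 17.7% higher and 15.9% lower; Oxidative phosphorylation reaches 52.3% lower.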

How the data were processed

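Poly-T selected RNA was sequenced by the authors, and the processing notes of the submitters name fastp 0.22.0, HISAT2 2.1.0 and HTSeq 0.9.1. Strand setting, annotation and build were not given in the sources used here. The deposited table holds read counts per gene and FPKM values made by the authors from the same counts, with gene length, symbol, description and pathways. No library column was left out of the mapping.

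Counts were tested with edgeR 4.0.16 (R 4.3.3): TMM factors, filterByExpr, quasi-likelihood test and Benjamini-Hochberg adjustment over all 12549 tested genes, with 12 libraries in 1 fit and the group as the only term. A gene was called at an adjusted p under 0.05 with 4 controls and with controls 1 to 3 summed; log2 changes (model minus control) and their SE come from the fit with 4 controls. CPM values are adjusted by TMM. On data simulated for this comparison over 12256 genes, 59 of 100 genes changed 2-fold and 95 of 100 changed 4-fold were recovered, with 1 false call. The simulated controls were drawn independently, unlike the nearly identical controls 1 to 3, and without trends with length or GC. These figures therefore check the procedure and do not give recovery or false calls in the real libraries. Alternatives were DESeq2 1.42.0, other scalings and filters, limma 3.58.1 on log2(FPKM + 0.1) and leaving out each library. Removal of trends with length and GC content, by offsets, was added after the data were seen. GC was that of the longest GENCODE transcript of each gene, found for 99.8% of tested genes.

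Genes described are the 12 called genes in each direction with the smallest p among large changes without overlap, the 10 with the largest differences in CPM, up to 4 called genes of each class with the smallest p, and abundant genes without change; not all are printed. Classes and lists were chosen with earlier results of these data known, so they are counted and not tested. Model and control libraries share numbers 1 to 4, but the correlations of same-numbered libraries (0.135, -0.112, 0.130 and 0.229) did not show pairing.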

Additional observations from a re-analysis of the deposited data

Results flagged for a closer look

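In each of 134 described genes, the 4 model libraries were searched for a library far from the other 3 by Dixon's test at its 95% critical value; chance alone gives about 1 such gene in 20. Control libraries were not searched, since controls 1 to 3 count as 1 sample. The search found 8 genes. Model 3 stood apart for Oas1g, at 79.2 CPM, above the other model libraries, for S100a8, at 8489.8 CPM, also above, and for Kif24, at 40.3 CPM, below them. Model 1 stood apart for Ms4a1 at 0.123 CPM, which is 2 counts against none in the others, for Clock at 36.1 CPM, above, and for Irf3 at 32.0 CPM, below. Model 2 was high for Alox15, at 2.06 CPM, and model 4 was low for Sertad1, at 6.48 CPM. None of the 8 genes lost its call when the library named was left out.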

How the results depend on the processing

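With 2221 genes higher and 1993 lower as the values reported, leaving out each library in turn gave 739 to 2241 higher and 568 to 1998 lower; the low ends, 739 and 568, were without control 4, and the next lowest were 1792 and 1436 without model 1. The other alternatives stayed within 1.5 times of both counts, with 1524 to 2922 higher and 1380 to 2804 lower. With the 8 model and control libraries alone, 1591 genes were higher and 1467 lower. FPKM values with limma gave 65.7% of calls higher, against 52.7%. The replicate numbers did not pair the libraries; a replicate block gave 2922 higher and 2804 lower. Of 134 described genes, 13 lost their call without control 4, 7 with the length trend removed and 5 with length and GC trends removed, and none changed sign under any alternative run. Class medians moved by more than the spread of the model libraries in 48 of 105 classes when the length trend alone was removed, in 40 when both trends were removed, in 34 with FPKM values and limma and in 21 without control 4. Depth limits genes at or under about 1 CPM, which have few counts per library.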
